A study of Mus musculus with 4 samples.

Results

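In single-cell ATAC sequencing of the mouse entorhinal cortex, 719 cell barcodes carried at least 5000 usable fragments and yet had not been called as nuclei by the authors. They were chosen by 2 values in the deposited per-barcode tables, the authors' call of a barcode (0 for not called) and its number of usable fragments, and they are referred to here as deep uncalled barcodes. MEC replicate 1 held 149 of them, MEC replicate 2 held 140, LEC replicate 1 held 240 and LEC replicate 2 held 190. They were set beside the called nuclei of the same library at the same depth minimum, which numbered 1019, 936, 1040 and 956 in that order and 3951 in all. Of the 4670 barcodes of that depth, 15.4% were uncalled. A further 135 of the 4086 called nuclei had fewer than 5000 fragments and were left out.

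The 4 libraries came from wild-type (WT) C57Bl6 mice at postnatal day 56, with 2 libraries of medial (MEC) and 2 of lateral (LEC) entorhinal cortex. The tissue of each region was taken from both hemispheres, microdissected and flash frozen, and no treatment was applied. All 4 libraries share strain, genotype and age, and 2 mice were used in all. The labels number the libraries of a region 1 and 2 without saying whether a number marks a mouse, so p-values over libraries measure only the spread between these samples, which may be technical. The libraries held between 114232167 and 146431311 read pairs and listed between 326538 and 369537 barcodes.

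In this assay the Tn5 transposase cuts accessible chromatin inside nuclei and attaches sequencing adapters, and a droplet then adds 1 barcode to the fragments it holds. A usable fragment is a unique, well-mapped read pair outside the mitochondrial genome, and each can be assigned to annotated classes of regions. Transcription start sites (TSSs) and promoters lie at the beginnings of genes and tend to be open in most cell types. Enhancers are distal elements whose opening differs more between cell types, and DNase-sensitive regions are sites of open chromatin mapped with another nuclease. The share of fragments in such classes is commonly used to tell barcodes that mark a nucleus from barcodes that hold loose DNA, and software that calls cells often counts fragments in peaks, the regions of enriched signal in the same data.

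Each member is identified by a barcode of 16 bases. The deepest deep uncalled barcode of each library is shown first, since these 4 exceed the deepest called nucleus of their library. They are extremes in depth and do not stand for typical members. Sequences are given as the tables list them.

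MEC replicate 1, deepest uncalled barcode: cacgttcagtccagag

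MEC replicate 2, deepest uncalled barcode: gacccagtcagaatga

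LEC replicate 1, deepest uncalled barcode: gaatctgagtaacatg

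LEC replicate 2, deepest uncalled barcode: ctctcagagcagaatt

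The MEC replicate 1 barcode held 255767 usable fragments, of which 4.21% were in peaks and 6.62% at TSSs, and it had 7.15 enhancer fragments for each promoter fragment. In MEC replicate 2 the deepest held 291346 fragments, with 5.32% in peaks, 7.42% at TSSs and an enhancer to promoter ratio of 6.83. The LEC replicate 1 barcode held 137693 fragments, with 3.63% in peaks, 7.61% at TSSs and a ratio of 6.51. In LEC replicate 2 there were 235843 fragments, 4.43% in peaks, 8.51% at TSSs and a ratio of 5.79. All 4 combined a low share in peaks with a ratio above that of every called nucleus in their library, where the highest was between 2.998 and 3.19. Over all members of a library the median ratio was between 2.62 and 3.03, and the median TSS share between 11.9% and 13.2%.

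A second set of sequences shows the member and the called nucleus of each library whose barcodes differ at fewest bases, with the deepest such member taken. Capitals mark the bases that differ.

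MEC replicate 1, uncalled: aCctgCtagtcgtact

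MEC replicate 1, called: aGctgAtagtcgtact

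MEC replicate 2, uncalled: ggAgaaCcacgctaat

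MEC replicate 2, called: ggCgaaAcacgctaat

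LEC replicate 1, uncalled: gtggcgtgtcaccCGa

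LEC replicate 1, called: gtggcgtgtcaccGCa

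LEC replicate 2, uncalled: ctctcAGagcagaatt

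LEC replicate 2, called: ctctcGAagcagaatt

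No member came closer to a called barcode of its library than 2 bases. At that distance were 1 of 149, 4 of 140, 5 of 240 and 2 of 190 members. Called nuclei came no closer to other called nuclei of their library. At 2 bases were 18 of 1019, 14 of 936, 20 of 1040 and 17 of 956 called nuclei. Both sets had a median of 5 differences in each library. The barcodes of each pair differed in depth and in enhancer to promoter ratio. In MEC replicate 1 the uncalled barcode held 6222 fragments at a ratio of 1.39 and the called one 22953 at 0.968. The MEC replicate 2 uncalled barcode held 144580 fragments at a ratio of 3.56, against 76783 at 2.16 in the called one. In LEC replicate 1 they held 76310 fragments at 3.24 and 29972 at 1.99. The LEC replicate 2 pair was furthest apart, with 235843 fragments at 5.79 and 27544 at 1.30. No member was also a member in another library, and 6 of the 719 carried a barcode that had been called in another library. Members were at most 0.0718% of the uncalled barcodes of a library. Called nuclei were 962 to 1081 of the 326538 to 369537 barcodes listed. Sets this small would share few barcodes in any case, so these counts are not a result about the members.

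The numbers and fragments of members follow from the depth minimum and are given as a description. Of the barcodes with at least 5000 fragments they were 12.8% in MEC replicate 1 (95% Wilson interval 11.0% to 14.8%) and 13.0% for MEC replicate 2 (11.1% to 15.2%). For LEC replicate 1 the figure was 18.8% (16.7% to 21.0%), and for LEC replicate 2 it was 16.6% (14.5% to 18.8%). These and all following intervals cover counting error only. Of all uncalled barcodes the members were only 0.0404%, 0.0392%, 0.0718% and 0.0584%, and they held 67.1%, 69.4%, 67.9% and 61.5% of the usable fragments of uncalled barcodes. Of all usable fragments of a library they held 13.1%, 12.6%, 17.3% and 14.2%.

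Their depths spread more widely than those of called nuclei, a description only because depth was part of the choice. Median usable fragments of members were 55358, 52650.5, 37455 and 33875.5 in the 2 MEC and 2 LEC libraries, against 60583, 63206, 45780 and 46146.5 in called nuclei. From the 10th to the 90th percentile, members of MEC replicate 1 ran from 6841 to 135376 fragments and called nuclei from 20709 to 98321, and both ends lay further out for members in the other 3 libraries as well. In the deepest class, 80000 fragments or more, there were 55, 53, 36 and 27 members beside 291, 305, 75 and 104 called nuclei. In the shallowest, from 5000 to 20000 fragments, there were 46, 46, 62 and 62 members beside 96, 76, 190 and 157. The uncalled part of a class was highest in these outer classes in each library, at 32.4%, 37.7%, 24.6% and 28.3% in the shallowest and 15.9%, 14.8%, 32.4% and 20.6% in the deepest, while the classes between them had 5.84% to 7.88% in MEC and 11.5% to 18.6% in LEC. Above the deepest called nucleus of their library lay 8, 1, 1 and 2 members.

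The summed fragments of deep uncalled barcodes lay less often in every annotated class of open chromatin than those of called nuclei, in all 4 libraries. At TSSs, members of the 2 MEC libraries had 11.2% and 11.7% of their fragments, and members of the 2 LEC libraries 11.4% and 11.6%. Values in fours follow this order of libraries from here on, replicate 1 before replicate 2 of each region. In called nuclei it was 18.8%, 18.9%, 17.1% and 17.3%. The 2 sets of 4 libraries did not overlap, and the difference within libraries was -6.55 ± 1.01 percentage points (SD, n = 4). At promoters the members had 5.20%, 5.55%, 5.20% and 5.39%, against 13.2%, 13.3%, 11.3% and 11.5% in called nuclei. This was the largest relative gap among the annotated classes of open chromatin, with members at 0.396 to 0.470 of the called share, and -6.97 ± 0.992 points (SD, n = 4).

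Enhancer fragments were lower by a smaller factor. Members had 15.5%, 16.6%, 16.2% and 16.3% of their fragments there, and called nuclei 23.3%, 23.4%, 22.3% and 22.3%, which puts members at 0.666 to 0.730 of the called share and at -6.70 ± 0.801 points (SD, n = 4). DNase-sensitive regions held 20.8%, 22.3%, 21.3% and 21.4% of member fragments and 36.2%, 36.4%, 33.7% and 33.6% of called fragments, a difference of -13.5 ± 1.54 points (SD, n = 4). On-target fragments, which in every row were at least as many as those of any of these 4 classes, were 33.7%, 35.5%, 34.7% and 34.9% in members and 51.0%, 51.2%, 48.3% and 48.3% in called nuclei. The remainder, off target, was thus 66.3%, 64.5%, 65.3% and 65.1% of member fragments, against 49.0%, 48.8%, 51.7% and 51.7%. Blacklisted regions, which collect artefactual signal, also held a smaller share in members, 0.184% to 0.203% against 0.251% to 0.305%.

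**Figure D1:**
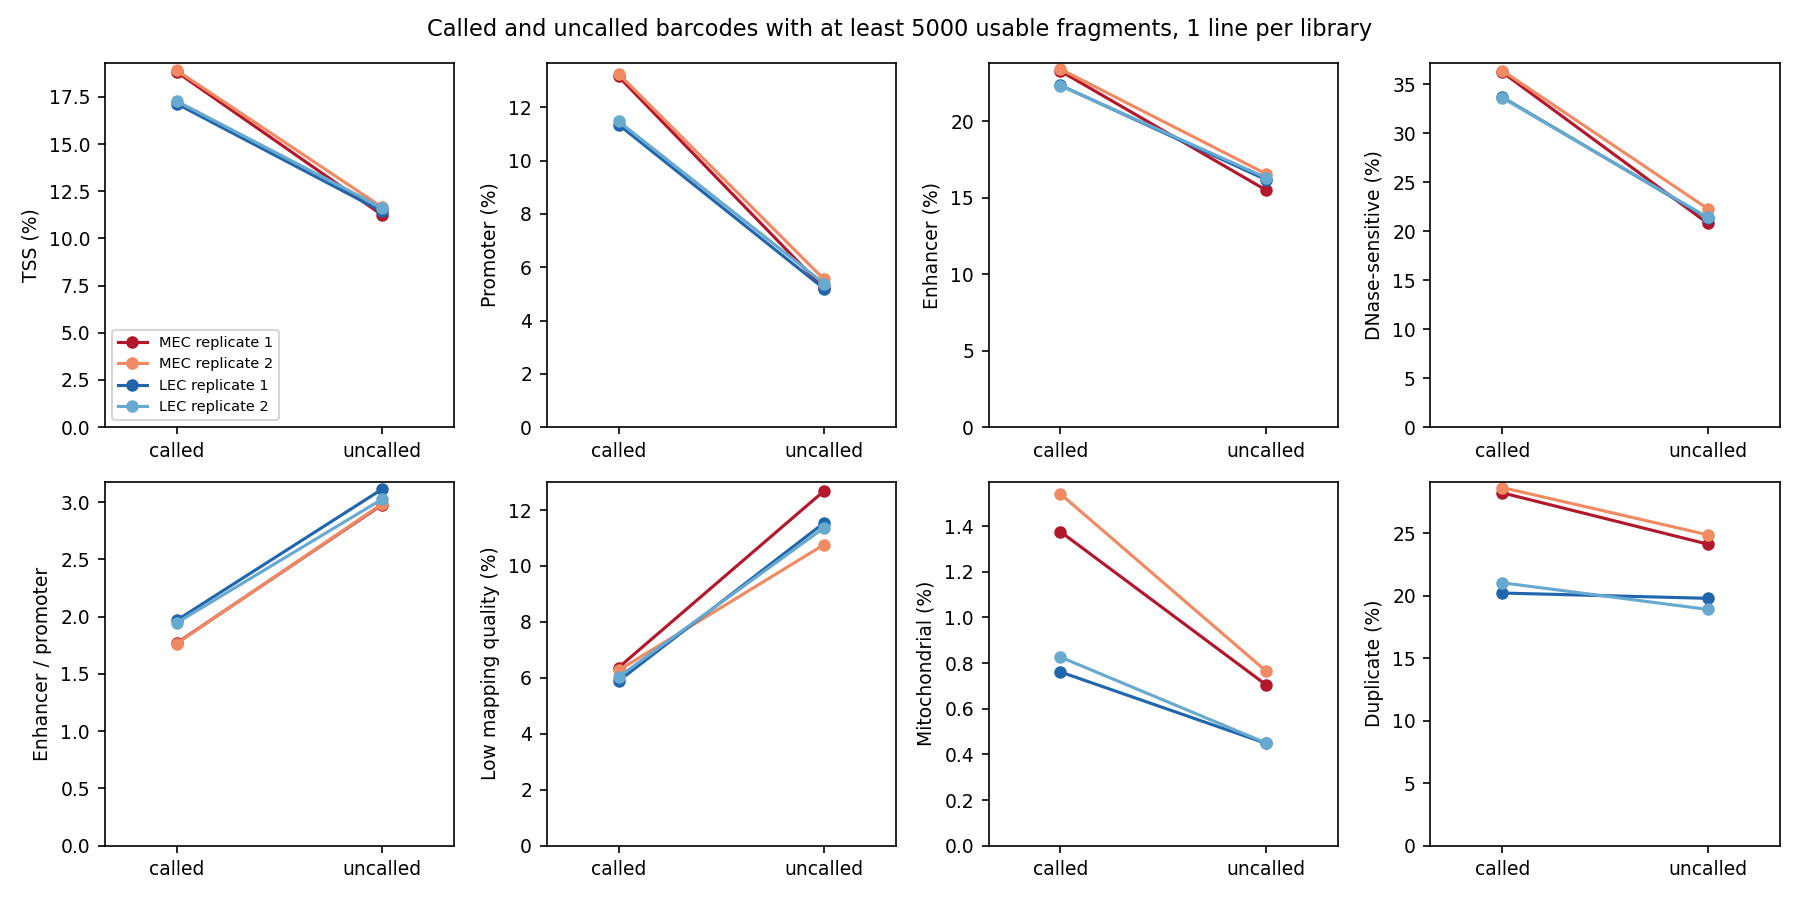
Shares of usable fragments or read pairs (%) and the enhancer to promoter ratio, summed over deep uncalled barcodes and over called nuclei, with 1 line per library joining its 2 values. For TSSs and promoters, and likewise for enhancers and DNase-sensitive regions, every line falls from called nuclei to uncalled barcodes, and at TSSs the members lie between 11.2% and 11.7% and the nuclei between 17.1% and 18.9%.

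With a wider relative gap at promoters than at enhancers, the enhancer to promoter ratio was higher in members. It was 2.98, 2.99, 3.11 and 3.03, against 1.77, 1.77, 1.97 and 1.95 in called nuclei. The difference was 1.16 ± 0.0641 (SD, n = 4), and members were at 1.56 to 1.69 times the called value. Fragments at TSSs also outnumbered those at promoters by more, with 2.16, 2.10, 2.20 and 2.16 TSS fragments for each promoter fragment in members and 1.43, 1.43, 1.51 and 1.51 in called nuclei.

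The read pairs that yielded no usable fragment also differed. Pairs of low mapping quality, which align equally well or poorly to several places, were 12.7%, 10.8%, 11.5% and 11.4% of all read pairs of members, and 6.37%, 6.27%, 5.89% and 6.03% of those of called nuclei. Members were at 1.72 to 1.99 times the called share, and the difference was 5.45 ± 0.756 points (SD, n = 4). Between medians over barcodes it was 2.32 points. Unmapped pairs were fewer in members (0.786% to 0.844%) than in called nuclei (0.921% to 1.05%), and chimeric pairs, whose ends map to different places, were slightly more (0.765% to 0.804% against 0.714% to 0.733%).

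Mitochondrial pairs, which come from organelles left with the nuclei, were 0.705%, 0.766%, 0.449% and 0.450% of read pairs in members and 1.38%, 1.54%, 0.761% and 0.826% in called nuclei. The difference was -0.534 ± 0.224 points (SD, n = 4) and lower in members in each library, although the values of the 2 sets overlap across libraries. It was -0.247 points without the 5% of barcodes with the highest mitochondrial share in each group and -0.115 points between medians. Duplicate pairs were 24.1%, 24.9%, 19.8% and 18.9% of duplicate plus usable pairs in members and 28.2%, 28.7%, 20.2% and 21.0% in called nuclei, so a lower share in each library (-2.61 ± 1.69 points, SD, n = 4) with overlap across libraries. It was -1.60 points between means over barcodes.

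A two-sided exact sign-flip permutation test over the 4 libraries gave p = 0.125 for each of the 12 measures above from TSSs to duplicates, on-target fragments and the ratio included, with 0.125 after Benjamini-Hochberg adjustment over them. This is the smallest p that 4 libraries allow, so no comparison could pass 0.05, and the direction in 4 of 4 libraries with the SD is the result. Fragments of these region classes can lie in peaks, so these measures are not independent of the call if the call used peaks, which the sources used here do not state. As described below, 568 of the 719 members had a peak share under that of every called nucleus of their library. How far the differences in region classes follow from peak share was not tested. The gap at TSSs was larger in MEC than in LEC libraries, at -7.42 ± 0.230 against -5.69 ± 0.0397 points (SD, n = 2 each, exact permutation p = 0.333, the smallest that 2 against 2 libraries allow).

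Members and called nuclei were also compared within the 4 classes of usable fragments, which gives 16 comparisons of a library and a class. The classes narrow the difference in depth without removing it. In the shallowest, median fragments were 8474.5, 8424, 10708 and 9131.5 in members and 15106.5, 14873.5, 14424 and 13522 in called nuclei, and in the deepest they were 115675, 120299, 89770 and 97232 against 92558, 94886, 87735 and 89428. With called nuclei weighted to the depths of the members, the mean difference was -5.73 points at TSSs, -6.13 points at promoters and 1.04 in the ratio. Members had the lower share in 16 of 16 for DNase-sensitive regions, enhancers, promoters and TSSs, and the higher enhancer to promoter ratio in 16 of 16. At promoters the members were between 0.369 and 0.525 of the called share, and at TSSs between 0.535 and 0.733. The largest absolute gaps at TSSs were in the lower classes. From 20000 to 40000 fragments, members had 13.7%, 14.2%, 12.9% and 13.2% of fragments at TSSs and called nuclei 25.7%, 26.4%, 21.4% and 22.0%. At 80000 fragments or more, the values were 10.4%, 10.7%, 10.7% and 10.1% against 16.3%, 16.3%, 14.6% and 14.7%.

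The ratio was higher in each deeper class of members, in all 4 libraries. In members of MEC replicate 1 it was 1.83, 2.15, 2.54 and 3.44 from the shallowest class to the deepest, and in called nuclei of that library 1.22, 1.31, 1.74 and 2.10. MEC replicate 2 members had 2.06, 2.21, 2.34 and 3.46. In LEC replicate 1 the members had 2.18, 2.55, 3.33 and 3.57, and in LEC replicate 2 they had 2.25, 2.53, 3.07 and 3.66. In each library the ratio of the shallowest members lay between those of called nuclei in the 40000 to 80000 class (1.74, 1.66, 2.16 and 2.10) and in the deepest class (2.10, 2.10, 2.45 and 2.40).

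**Figure D2:**
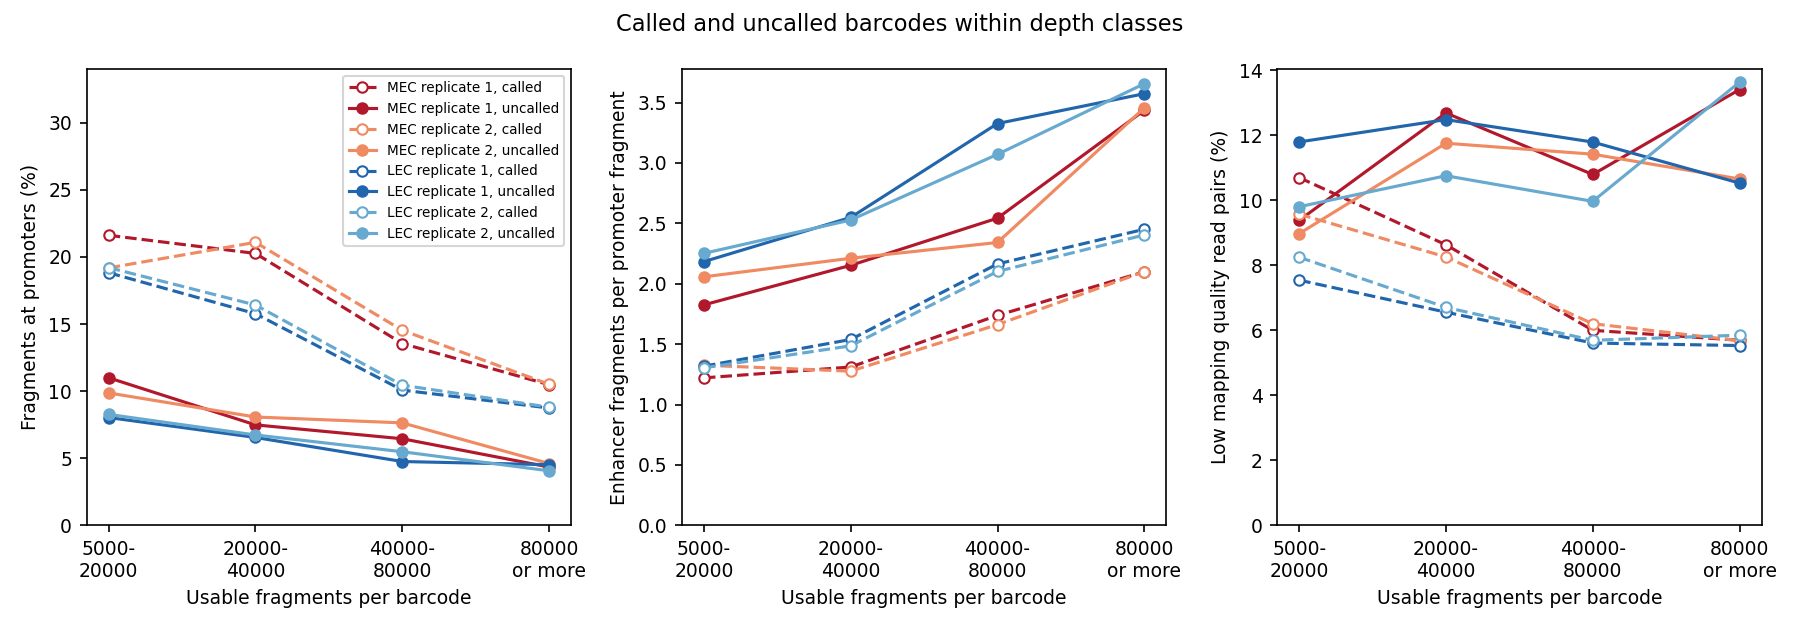
Pooled values of deep uncalled barcodes and called nuclei in each class of usable fragments per barcode, by library. The enhancer to promoter ratio of members reaches 3.44 to 3.66 at 80000 fragments or more, where called nuclei are between 2.10 and 2.45, and in every class the members lie above the nuclei of their library.

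On-target, blacklisted and unmapped shares were also lower in members in 16 of 16. Some other measures changed place between classes. Low mapping quality pairs were higher in members in 14 of 16 comparisons, the exceptions being the shallowest class of both MEC libraries (9.39% and 8.98% against 10.7% and 9.58%). Mitochondrial shares were lower in members in 13 of 16, with the greatest distance in the shallowest class, where MEC members had 0.826% and 3.18% and MEC called nuclei 10.5% and 8.50%. Duplicates were lower in 13 of 16 and chimeric pairs higher in 14 of 16. Estimated from duplicates, the median number of distinct fragments behind a member was 0.901, 0.851, 0.813 and 0.694 times that behind a called nucleus over all depths. It was 0.727, 0.512, 0.749 and 0.810 times in the shallowest class and 1.37, 1.42, 1.18 and 1.17 times in the deepest. The estimate uses usable fragments and so moves with depth, which the rule used. Median usable fragments of members were 0.914, 0.833, 0.818 and 0.734 times those of called nuclei over all depths.

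Called nuclei and members were not separated by single barcodes to the same degree in every measure. In the share of fragments in peaks, 568 of 719 members (79.0%) lay below the lowest called nucleus of their own library. The same held for 420 members (58.4%) in the DNase-sensitive share, 334 (46.5%) in the promoter share, 313 (43.5%) in the TSS share and 307 (42.7%) in the enhancer share. In the enhancer to promoter ratio, 291 members (40.5%) lay above the highest called nucleus, and the highest members reached 8.17, 9.24, 11.4 and 8.84. In mitochondrial share, by contrast, 633 members (88.0%) lay between the 5th and the 95th percentile of called nuclei, and in duplicate share 562 (78.2%) did.

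The peak share is described, with no test, since a cell caller may use it. Summed over members it was 13.5%, 15.7%, 10.5% and 10.9%, against 33.8%, 34.6%, 24.1% and 24.6% in called nuclei. The lowest peak share of any called nucleus of at least 5000 fragments, referred to as the boundary, was 20.1% and 20.7% for MEC and 14.9% and 15.4% for LEC. Below it lay 112 of 149 members of MEC replicate 1 (75.2%, Wilson interval 67.7% to 81.4%), 93 of 140 of MEC replicate 2 (66.4%, 58.3% to 73.7%), 207 of 240 of LEC replicate 1 (86.2%, 81.3% to 90.0%) and 156 of 190 of LEC replicate 2 (82.1%, 76.0% to 86.9%). They held 90.1%, 87.2%, 92.2% and 94.1% of the usable fragments of members.

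**Figure D3:**
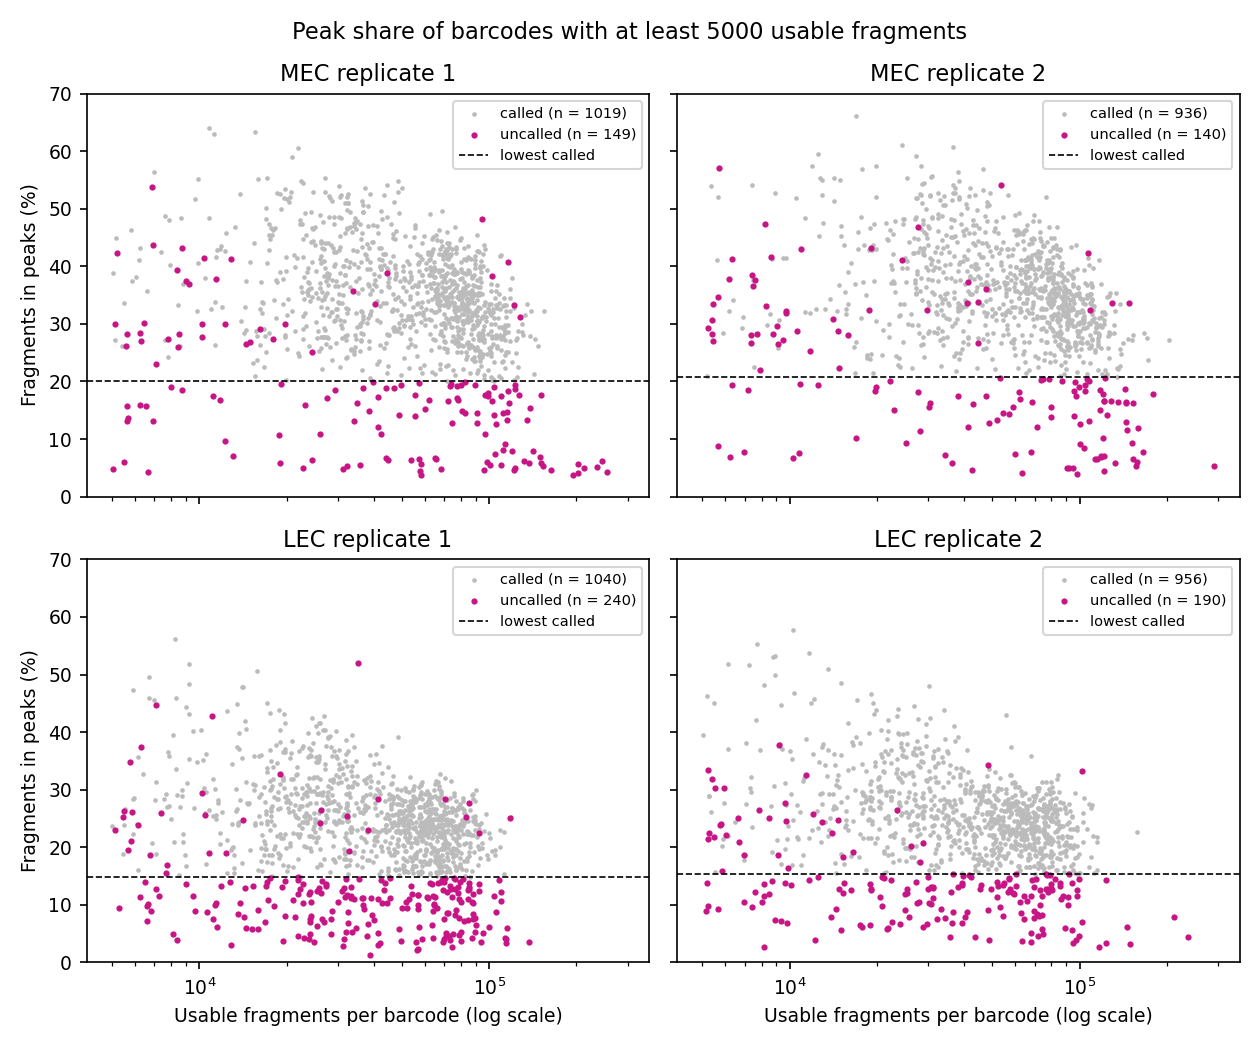
Share of usable fragments in peaks (%) against usable fragments per barcode (log scale), 1 point per barcode of at least 5000 fragments and 1 panel per library, with deep uncalled barcodes and called nuclei in different colours. The uncalled barcodes fill the space below the lowest called nucleus, at 20.1%, 20.7%, 14.9% and 15.4%, over the whole range of depth, and those above it are mostly shallow.

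The change at the boundary was abrupt. Within 2 percentage points below it lay 20, 16, 42 and 37 uncalled barcodes and, by construction, no called nucleus, while within 2 points above it lay 28, 25, 81 and 63 called nuclei and only 0, 2, 1 and 2 uncalled barcodes. Of the 4102 deep barcodes at or above the boundary of their library, 96.3% had been called. The called nucleus with fewest peak fragments held 115, 203, 366 and 332 of them, and 2 members had fewer. These minimums were taken over all called nuclei, those under the depth minimum included. They therefore cannot show whether the number of peak fragments divided the deep barcodes. The boundary differed between regions: 233 called nuclei (22.4%) of LEC replicate 1 and 170 (17.8%) of LEC replicate 2 had a peak share below that of every MEC nucleus. Peak shares of different libraries may refer to different sets of peaks, which the sources used here do not state.

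Barcodes just below and just above the boundary had medians near each other in measures other than peaks. Medians at TSSs for uncalled barcodes within 2 points below were 15.0%, 14.2%, 13.7% and 14.0%, and for called nuclei within 2 points above 15.2%, 14.8%, 13.8% and 14.5%. Medians of the enhancer to promoter ratio were 2.20, 2.45, 2.57 and 2.52 below and 2.19, 2.36, 2.52 and 2.39 above. Low mapping quality pairs had medians of 6.71%, 7.09%, 7.48% and 7.36% below and 6.86%, 6.55%, 6.63% and 6.83% above. Called nuclei were the deeper in 3 of the 4 libraries, with medians of 88025.5, 72151, 54693 and 62053 fragments against 65287, 76623, 38978 and 42206.

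At the other limit of the rule, the depth minimum, uncalled barcodes from 4000 to 5000 fragments numbered 9, 20, 14 and 11 and members from 5000 to 6000 fragments 9, 8, 8 and 14. Their median enhancer to promoter ratios were 2.09, 1.93, 2.06 and 2.09 just outside the minimum and 2.42, 2.37, 2.11 and 2.40 just inside. Median peak shares were 35.9%, 30.5%, 25.7% and 24.6% outside and 15.6%, 29.9%, 24.1% and 22.1% inside.

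For description, members were divided by peak share into a low range under 50% of the boundary, a middle range from there to the boundary and a high range at or above it. These ranges were set after the values had been seen and are not tested. The low range held 45, 33, 64 and 39 members (181 in all), the middle range 67, 60, 143 and 117 (387 in all) and the high range 37, 47, 33 and 34 (151 in all).

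Members of the low range departed furthest from called nuclei. Their median enhancer to promoter ratio was 5.73, 5.82, 5.44 and 5.02, against 1.74, 1.76, 1.98 and 1.94 in called nuclei. A median of only 1.90%, 2.14%, 2.38% and 2.82% of their fragments was at promoters, against 13.5%, 13.4%, 11.5% and 11.4%. At TSSs the medians were 7.93%, 8.17%, 8.70% and 8.96%, and low mapping quality pairs were at 16.0%, 14.5%, 13.7% and 13.6%. In the MEC libraries these were the deepest barcodes, with medians of 98226 and 97810 fragments, above the called medians of 60583 and 63206. In the LEC libraries the medians were 49113 and 43539 fragments, close to the called medians of 45780 and 46146.5.

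Members of the middle range lay between. Their median ratio was 2.43, 2.72, 2.87 and 2.77, and their promoter share was 7.17%, 6.65%, 5.89% and 6.21%. Median TSS shares were 13.6%, 12.9%, 12.3% and 12.6%, and low mapping quality pairs were at 7.18%, 7.56%, 8.16% and 8.08%. Median fragments were 72248, 79731, 40194 and 42206.

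Members of the high range were shallow, and their shares lay closest to those of called nuclei. Their median depth was 10217, 9714, 10798 and 9131.5 fragments, and 111 of the 151 had fewer than 20000. Medians at TSSs were 18.6%, 16.8%, 16.5% and 15.9%, the ratio was 1.85, 2.04, 2.15 and 2.18, and low mapping quality pairs were at 5.48%, 5.36%, 5.66% and 5.58%, beside 5.75%, 5.66%, 5.68% and 5.79% in called nuclei.

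**Figure D4:**
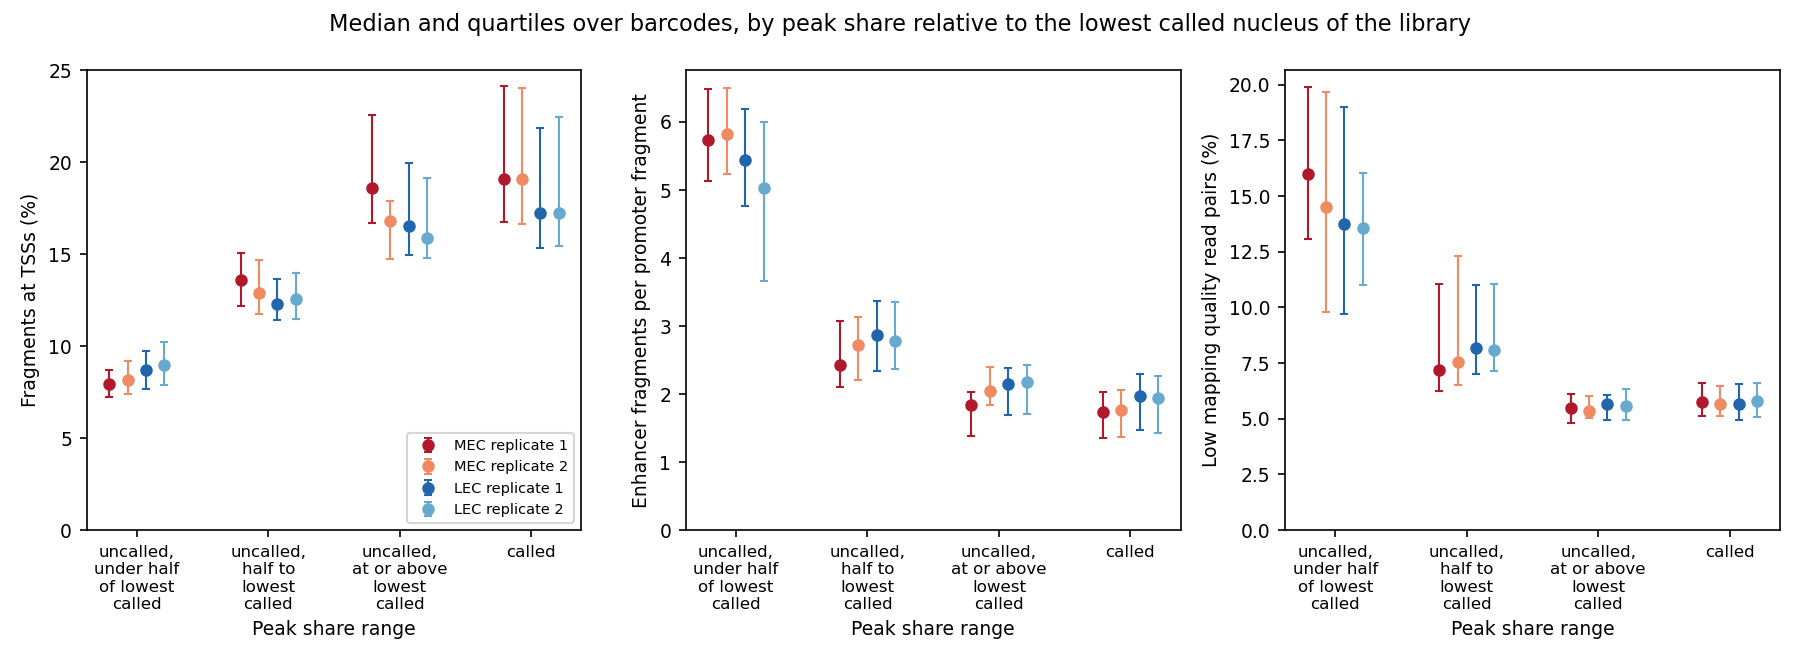
Medians (points) and quartiles (bars) over barcodes of each library of the TSS share (%), the enhancer to promoter ratio and the low mapping quality share (%), for deep uncalled barcodes in the low, middle and high range of peak share and for called nuclei. The enhancer to promoter ratio falls from between 5.02 and 5.82 in the low range to between 1.85 and 2.18 in the high range, next to 1.74 to 1.98 in called nuclei.

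The shallow members of the high range were set beside called nuclei of the shallowest class and of 40000 fragments or more. For members under 20000 fragments in this range, which numbered 28, 34, 21 and 28, the median ratio was 1.73, 2.04, 1.83 and 2.27. Their median depth of 8625.5, 8233, 7096 and 7417 fragments was well under that of called nuclei in the shallowest class, at 15106.5, 14873.5, 14424 and 13522, so depth was not matched. Called nuclei of 5000 to 20000 fragments had 1.22, 1.33, 1.33 and 1.30, and called nuclei of 40000 fragments or more had 1.91, 1.88, 2.23 and 2.20. Median TSS shares were 19.6%, 16.3%, 17.2% and 15.8% in these members. They were 26.5%, 23.6%, 23.9% and 24.8% in called nuclei of the shallowest class and 17.5%, 17.8%, 15.7% and 15.8% in the deeper ones. Mitochondrial medians were 0.243%, 0.205%, 0.314% and 0.530% in these members, below the 0.856%, 0.575%, 0.913% and 1.03% of called nuclei in the shallowest class.

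The barcode sequences of the high range also differed from those of the other members. All barcodes are joined from 1920 distinct sequences in the first 8 bases and 1536 in the last 8. In MEC replicate 1, 33 of 37 members of the high range (89.2%) had the first 8 or the last 8 bases in common with a called nucleus of their own library, whereas 59.5% to 67.6% had them in common with a called nucleus of another library. In MEC replicate 2 it was 44 of 47 (93.6%), against 63.8% to 76.6% with other libraries. LEC replicate 1 gave 28 of 33 (84.8%), against 57.6% to 81.8%, and LEC replicate 2 gave 32 of 34 (94.1%), against 64.7% to 79.4%. The own library exceeded all 3 others in 4 of 4 libraries, but only narrowly in LEC replicate 1. There the first 8 bases alone gave 54.5% in the own library, against 36.4% to 63.6% in the others. The last 8 bases alone gave 57.6%, against 42.4% to 57.6%. In each other library, both the first and the last 8 bases alone exceeded all 3 others.

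For members below the boundary the share in the own library was 70.5%, 71.0%, 75.4% and 70.5%. With other libraries it was 64.3% to 67.9%, 69.9% to 74.2%, 67.6% to 73.4% and 66.7% to 73.1%, so the own library exceeded all others in 2 of 4 only. Called nuclei set against other called nuclei of their own library gave 73.8%, 71.0%, 71.7% and 67.4%. Uncalled barcodes of 1000 to 5000 fragments with a peak share at or above the boundary, which are too shallow to be members, went further than the members of the high range. Of these, 126 of 126, 123 of 125, 126 of 135 and 103 of 105 shared the first or last 8 bases with a called nucleus of their own library, against 61.1% to 75.2% with any other library.

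**Figure D5:**
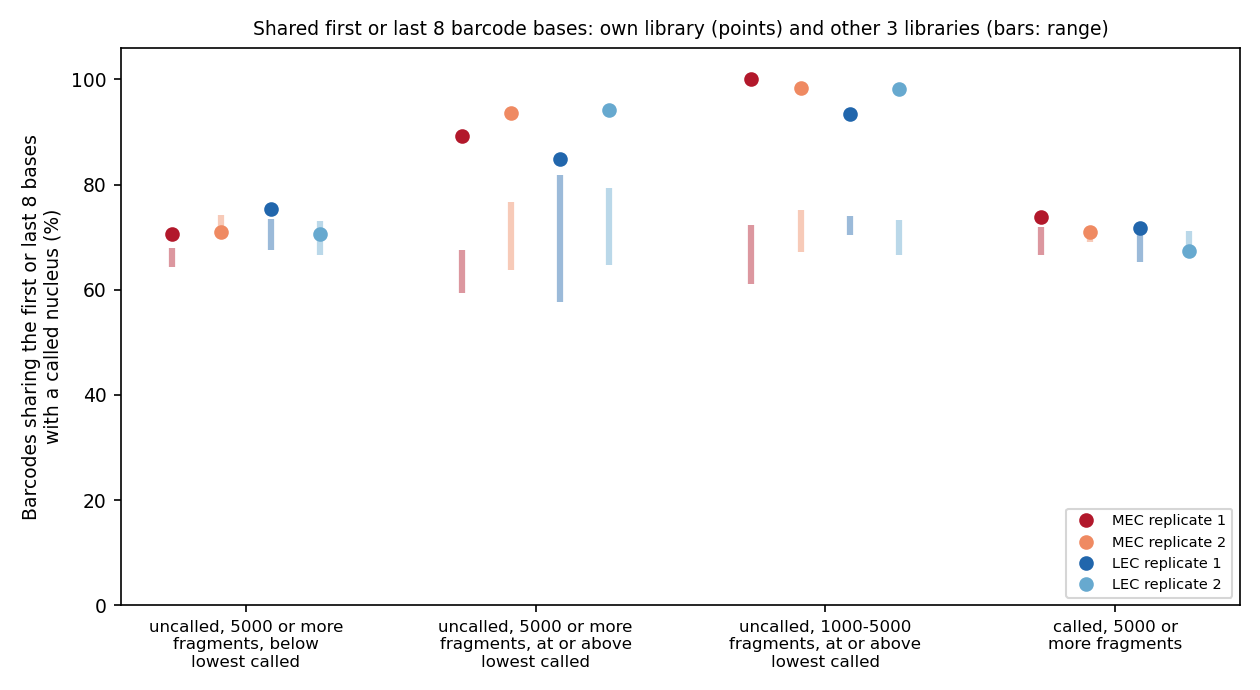
Share of barcodes (%) whose first or last 8 bases equal those of a called nucleus, with points for called nuclei of the same library and bars for the range over the other 3 libraries, in each library and set of barcodes. Members at or above the boundary reach 84.8% to 94.1% in their own library, above the bars, though only narrowly in LEC replicate 1. Members below the boundary are at 70.5% to 75.4%, near or within the bars.

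The enhancer to promoter ratios of members of the high range were also ranked against those of the called nuclei whose barcode bases they shared. Over the 33, 44, 28 and 32 members with such a nucleus, Spearman's rho between the member's ratio and the mean ratio of the nuclei was 0.572, 0.430, 0.677 and 0.643. With called nuclei of other libraries it ranged from -0.0548 to 0.318, from 0.117 to 0.504, from -0.00790 to 0.437 and from -0.0514 to 0.441, so in MEC replicate 2 the value of the own library lay inside the range of the others. These are descriptions over barcodes, which share a library and its sequencing depth. What part the shared barcode bases have in the values of the high range was not tested.

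Within members the measures moved together, again as a description over barcodes of 1 library with the same fragments in the denominator. Spearman's rho between peak share and enhancer to promoter ratio was -0.872, -0.829, -0.797 and -0.795 over the 149, 140, 240 and 190 members, and -0.562, -0.587, -0.618 and -0.626 over called nuclei. Members with a higher peak share had fewer low mapping quality pairs (rho -0.778, -0.762, -0.711 and -0.642), a relation that was weak in called nuclei (-0.102, -0.0939, -0.251 and -0.216). The ratio was higher in deeper barcodes of both sets, with rho between 0.516 and 0.558 in members and between 0.748 and 0.794 in called nuclei. In peak fragments, the number of cut sites per fragment was 1.76, 1.76, 1.71 and 1.72 in members and 1.82, 1.82, 1.76 and 1.77 in called nuclei.

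Between regions, LEC libraries held more deep uncalled barcodes than MEC libraries. The number was 144.5 ± 6.36 in MEC and 215.0 ± 35.4 in LEC (SD, n = 2 each), and their part of all usable fragments was 12.9% ± 0.400 and 15.8% ± 2.19, both given without a test because the rule sets them. Without LEC replicate 1 the differences of -70.5 barcodes and -2.91 points were -45.5 and -1.37.

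How members of the 2 regions compared at genes and enhancers depended on the summary. Over summed fragments, shares at TSSs were 11.5% ± 0.293 in MEC and 11.5% ± 0.137 in LEC, at promoters 5.38% ± 0.243 and 5.29% ± 0.136, at enhancers 16.0% ± 0.750 and 16.2% ± 0.0910, and in DNase-sensitive regions 21.5% ± 1.05 and 21.4% ± 0.0522. The libraries of the 2 regions overlapped in each of these 4 summed shares. Between medians over barcodes, MEC was higher by 0.795 points at TSSs, 1.15 at promoters, 1.00 at enhancers and 2.24 in DNase-sensitive regions, without overlap (exact permutation p = 0.333 for each, the smallest possible). In called nuclei, over summed fragments, MEC was higher by 1.66, 1.79, 1.01 and 2.67 points in the same order, also without overlap.

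Of the 12 summed values that the rule did not use, 5 separated the regions over members. For any 1 value, such separation occurs in 0.333 of the possible assignments of libraries to regions, so the count alone is not a result. Duplicates were at 24.5% ± 0.530 in MEC and 19.3% ± 0.627 in LEC (SD, n = 2 each). The enhancer to promoter ratio was lower in MEC, at 2.98 ± 0.00484 against 3.07 ± 0.0615, and the difference of -0.0887 was -0.329 between medians over barcodes. Mitochondrial pairs were higher in MEC over summed pairs, at 0.735% ± 0.0426 against 0.449% ± 0.00123, but the difference was -0.122 points between medians, so their direction depended on the summary. Unmapped pairs and the share in blacklisted regions also separated, the latter in the opposite direction to its medians. For these 5 the exact permutation test gave p = 0.333, its smallest possible, and 0.800 after Benjamini-Hochberg adjustment over the 12. The peak share, given without a test, was 14.6% ± 1.57 in MEC and 10.7% ± 0.295 in LEC. MEC libraries had also been sequenced more deeply, and depth and region cannot be told apart with these 4 libraries.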

How the data were processed

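The deposited tables, 1 for each of the 4 libraries, list barcodes in rows. As counts, the authors gave per barcode the read pairs of each class, per the file headers (duplicate, chimeric, unmapped, low mapping quality, mitochondrial, usable) and the usable fragments in each class of region. Whether the authors called a barcode as a cell is coded 0 or 1 (unit other). Builds mm10 and GRCm38 are named in the submitters' processing notes. Not given in the sources used here are the aligner, the cell caller, the peak caller, the origin of the region annotation and whether samples were pooled to call peaks.

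Reads with no valid barcode were dropped. Members were uncalled barcodes with at least 5000 usable fragments. Region shares are summed class fragments over summed usable fragments, duplicates over duplicate plus usable pairs, and other pair classes over all read pairs. In 100% of rows the total equals the sum of the 6 classes of pairs. A fragment can count in several region classes. Shares of single libraries have counting intervals (Wilson, 95%) of at most 0.0322 points to either side, and fragments of 1 barcode are not independent. Distinct fragments were estimated from duplicates by the Lander-Waterman relation. Doublets were not called, for want of counts per locus. Libraries were the replicates. Members were compared with called nuclei by a two-sided exact sign-flip test over 4 libraries, and MEC with LEC by an exact permutation test over 6 assignments. Every class in the tables is reported, and single barcodes are named by a rule: the deepest member per library, and the member and called nucleus that differ at fewest bases. Alternatives were medians and means over barcodes, other depth minimums, weighting of called nuclei to the members' depths in bins of 0.25 on the log10 scale, depth classes, other denominators, a replicate block and leaving out barcodes or libraries. The statistics were tested on simulated data. The members, measures and comparisons were chosen with earlier results of these data known. Python 3.11.15, numpy 2.4.6, pandas 2.3.3, scipy 1.17.1 and matplotlib 3.10.9 were used.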

Additional observations from a re-analysis of the deposited data

Results flagged for a closer look

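In 3 measures the difference between deep uncalled barcodes and called nuclei had opposite signs in the 2 regions within a class of depth, in both libraries of each region. The difference between the regions was not tested. Low mapping quality pairs from 5000 to 20000 fragments were lower in members in MEC (mean difference -0.957 points) and higher in LEC (2.90 points). Chimeric pairs in the same class were higher in members by 0.0581 points in MEC and differed by -0.0245 points in LEC. Mitochondrial pairs from 40000 to 80000 fragments were higher in members by 0.278 points in MEC and differed by -0.306 points in LEC.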

How the results depend on the processing

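Of 318 recomputed values, 302 kept their direction, among them 15 with a replicate block that could not change it. All 207 comparisons between members and called nuclei, peak share included, kept the sign of their mean over libraries under every alternative run. TSS differences were between -10.4 points (20000 to 40000 fragments) and -4.63 (over all read pairs). The low mapping quality difference was 2.32 points between medians. Single libraries could still go the other way within a class of depth. Mitochondrial differences from 40000 to 80000 fragments were 0.268, 0.288, -0.253 and -0.359 points. Duplicate differences from 5000 to 20000 fragments were -1.80, 2.05, 0.556 and -2.40 points. The comparisons among the 207 that left out 1 library could not reverse, since every measure had the same sign in all 4 libraries. Weighting called nuclei to the members' depths left out 9 members in depth bins without called nuclei.

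The 16 reversals were all among the 107 comparisons of members between MEC and LEC, whose direction depended on the summary or on 1 library. Between medians, MEC minus LEC was 0.795 points at TSSs, 1.00 at enhancers, 2.11 on target, 0.00518 in blacklisted regions, -0.122 for mitochondrial and -0.475 for low mapping quality pairs. Leaving out each library in turn gave -0.279 to 0.135 at TSSs, -0.0871 to 0.256 at promoters, -0.743 to 0.318 at enhancers, -0.571 to 0.919 in DNase-sensitive regions, -1.15 to 0.697 on target, -0.690 to 1.23 for low mapping quality and -0.0263 to 0.00500 for chimeric pairs. The cause was not tested. With a replicate block all 15 region differences stayed the same by construction, as each region has 1 library of each number. They were 0.0846 points at promoters and 5.15 for duplicates, for example. The smallest p that a sign-flip test over these blocks allows was 0.5. Deviations of equally numbered libraries correlated at r = 0.206 over 13 measures, and no label says that the numbers pair them. With 4 libraries no test could pass 0.05, so these directions are descriptions.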
